A study of Mus musculus with 2 samples.

Results

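The elastic fibre and microfibril genes described here are *Fbn1*, *Mfap5*, *Mfap4*, *Eln*, *Fbln1*, *Fbln2*, *Fbln5*, *Efemp1*, *Ltbp4* and *Emilin1*. They were chosen by symbol, each has 1 row in the count matrices of both libraries, and together they are 10 of 32285 genes. Fibrillin assembles into microfibrils, thin extracellular filaments that many connective tissues carry on their own and that also form the outer scaffold of elastic fibres. Tropoelastin is deposited on that scaffold, with help from fibulins, and is crosslinked by lysyl oxidases into a fibre that stretches and recoils. Latent TGF-β binding proteins, emilins and microfibril-associated glycoproteins sit on the same scaffold, and part of the store of latent TGF-β in tissue is held there.

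The data are single-cell RNA-seq counts from mice of the genotype Clec3b.creERT2; Ai14.R26.tdTomato, in which tamoxifen lets Cre made from the endogenous *Clec3b* locus switch on tdTomato permanently. Both libraries come from this 1 genotype, with tamoxifen given 2 weeks before surgery. The intact library holds femoral diaphyses with surrounding muscle and the callus library fracture calluses, both taken 3 weeks after fracture surgery. Tissue of 3 mice was pooled for each library and cells were sorted for tdTomato, so there is 1 library per condition, no test between conditions is possible and the mice cannot be told apart.

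The intact library holds 12112002 unique molecular identifiers (UMIs) in 1872 barcodes and the callus library 36714322 in 3987. Filtering on genes and mitochondrial UMIs left 1207 and 3295 cells, of which 1 barcode is found in both libraries. The mice are labelled male, whereas among deeply sequenced fibroblasts *Xist* had a UMI in 97.5% of 198 in the intact and 98.1% of 155 in the callus library, and 4 Y-linked genes had 0 UMIs in fibroblasts. Blood, endothelial and muscle cells made up most of the cells kept, although the sort was for tdTomato. Stromal cells were typed by the summed UMIs of marker lists that contain none of the 10 genes.

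The *Pi16*-type, fibroblasts with the markers *Pi16*, *Dpp4* and *Sema3c*, had 212 intact and 122 callus cells. The *Col15a1*-type, with *Col15a1*, *Smoc2* and *Hsd11b1*, had 47 and 19 cells. A group typed by a tendon list is called the *Thbs4*-type (18 and 51 cells), because most UMIs of its list were *Thbs4* and *Cilp*, while *Tnmd*, a defining tendon gene, had a UMI in 10 of the 51 callus cells and *Scx* in 6. Callus cells with bone marrow stromal markers such as *Lepr* and *Adipoq* (BMSC-type, 20 cells) and with osteoblast markers such as *Bglap* and *Ifitm5* (osteoblast-type, 40 cells) had no counterpart of more than 1 cell in the intact library. Another 9 intact and 20 callus cells stayed untyped, and "all fibroblasts" means *Pi16*-, *Col15a1*-, *Thbs4*-type and untyped cells, 286 intact and 212 callus.

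Each type carried its own markers, which typing by these same lists largely fixes in advance. All 7 *Pi16* markers were highest in the *Pi16*-type of both libraries, and so were 7 intact and 6 callus of 8 *Col15a1* markers, 8 and 9 of 10 *Thbs4*-list genes, 7 of 7 BMSC and 8 of 9 osteoblast markers in their own types. The types are ranges on a scale. In the intact library 16 *Pi16*-, 5 *Col15a1*- and 5 *Thbs4*-type cells lay within 1.5-fold of their limit, in the callus library 14, 6 and 3, and no BMSC- or osteoblast-type cell did. *Thbs4*-type cells had medians of 21.2 (intact) and 17.3 (callus) UMIs of the *Col15a1* list per 10000, below the limit of 32, and the BMSC-type had a median of 63.3. The BMSC-type also had a median of 12.9 UMIs of the osteoblast list, above that list's limit of 8. *Lepr* had a UMI in 13 and *Adipoq* in 9 of the 40 osteoblast-type cells. Types from clusters gave 31 BMSC-type and 29 osteoblast-type callus cells, so the border between these 2 types depended on the typing. *Clec3b* itself stood at 1636 and 1761 UMIs per 1000000 in *Pi16*-type cells, 628 and 771 in *Thbs4*-type cells, 20.8 in the BMSC-type and 1.23 in the osteoblast-type.

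Levels below are UMIs per 1000000 UMIs (CPM) of the summed cells of a type, with the exact Poisson 95% interval in brackets. Shares are the percent of cells with a UMI after every cell was thinned to 2000 UMIs. Both intervals cover counting error only, since cells of a library are not replicates. A 3′ UMI counts a molecule whatever its length, so levels of different genes are set side by side and not ranked. Neutrophils served as a rough floor (median 5779 UMIs intact and 8695.5 callus, against 7403 and 7567.5 in fibroblasts). Their thinned share was at most 1.02% in the intact library, for *Fbn1*, and at most 1.79% in the callus library, for *Emilin1*. In callus neutrophils *Emilin1* stood at 12.5 CPM and the next gene, *Fbln2*, at 0.89, so they may be no floor for *Emilin1*. Whether neutrophils express it was not tested.

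The 3 fibroblast types and the 2 other stromal types differed in which of the 10 genes stood high. Summed over the 10 genes, *Pi16*-type cells held 9276 CPM in the intact and 9419 in the callus library, or 0.928% and 0.942% of their UMIs. *Fbn1* alone gave 36.7% and 37.8% of this sum and *Mfap5* stood at 3145 and 2727 CPM, so the sum rested largely on these 2 genes. The *Col15a1*-type held 5400 (intact) and 5500 (callus), the *Thbs4*-type 6138 and 7832, the BMSC-type 2550.3 and the osteoblast-type 224. After thinning, the median *Pi16*-type cell carried 5 of the 10 genes in both libraries. The median *Thbs4*-type cell carried 6 (intact) and 5 (callus), and the median *Col15a1*-type cell 4.5 and 4. The median BMSC-type cell carried 2 and the median osteoblast-type cell 0.

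**Figure D1:**
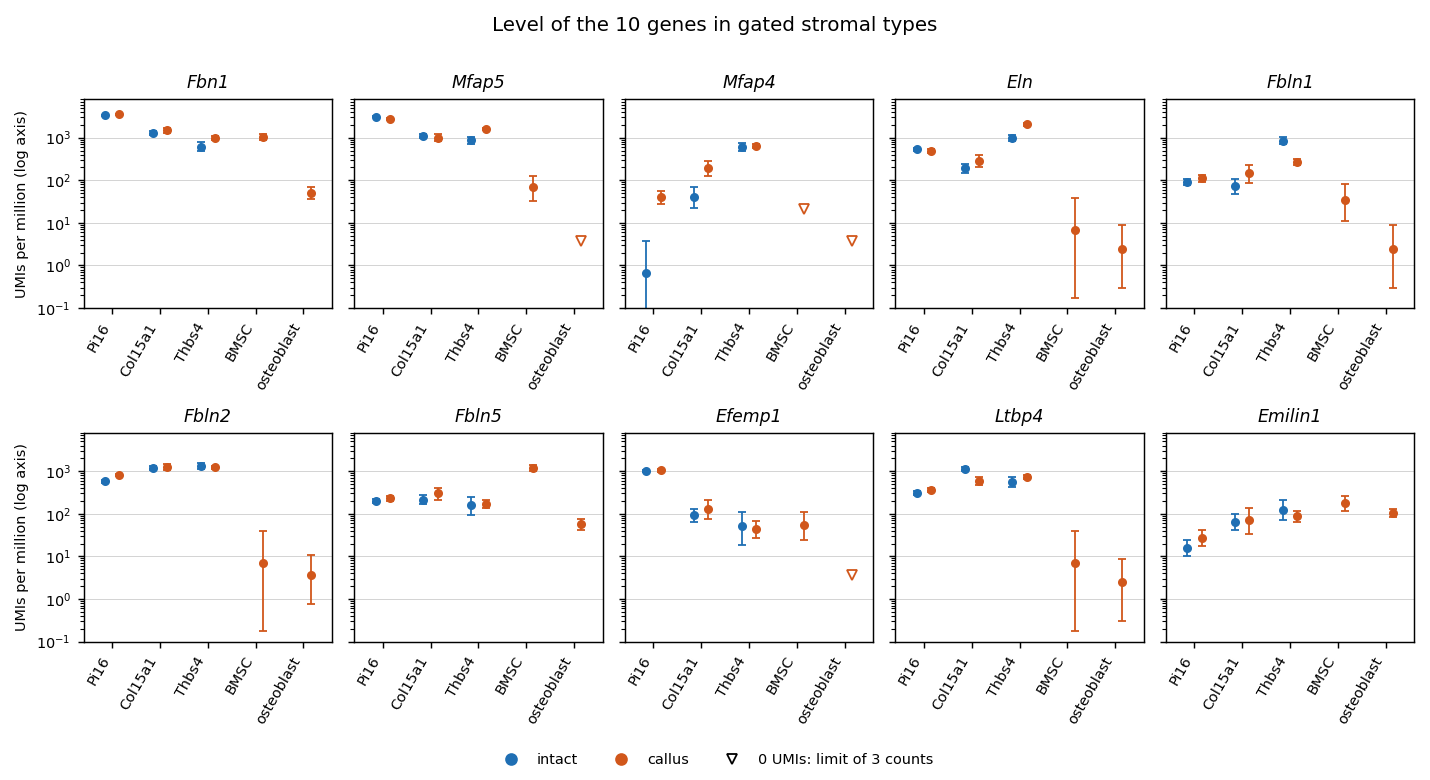
CPM (log axis) of each of the 10 genes in the gated stromal types of the intact (blue) and callus (orange) library, with exact 95% Poisson bars for counting error; open triangles mark 0 UMIs at the limit of 3 counts. *Fbn1*, *Mfap5* and *Efemp1* stand highest in *Pi16*-type cells, *Mfap4*, *Eln* and, in the intact library, *Fbln1* in *Thbs4*-type cells and *Fbln5* in BMSC-type cells; only types of at least 15 cells are drawn.

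Sequence upstream of 3 of the genes is shown because, among the named types, these 3 stood highest in different ones: *Fbln1* in the *Thbs4*-type, *Fbln5* in the BMSC-type and *Efemp1* in the *Pi16*-type. Each is the stretch before the gene's first listed RefSeq start site that precedes any annotated exon. It is on build GRCm38.p6 and read 5′ to 3′ on the gene's strand. Capitals mark matches on either strand to the searched letters, which were TATAAA for a TATA box, GGGCGG for a GC box, CCAAT for the promoter element of that name, TGANTCA for an AP-1 site and CAGAC for a SMAD box.
*Fbln1*, chr15:85205699-85205948, plus strand: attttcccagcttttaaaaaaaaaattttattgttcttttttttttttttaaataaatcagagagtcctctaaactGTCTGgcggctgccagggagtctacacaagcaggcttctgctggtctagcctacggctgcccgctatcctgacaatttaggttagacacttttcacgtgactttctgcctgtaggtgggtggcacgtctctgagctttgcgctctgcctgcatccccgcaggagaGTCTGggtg
*Fbln5*, chr12:101819120-101819369, minus strand: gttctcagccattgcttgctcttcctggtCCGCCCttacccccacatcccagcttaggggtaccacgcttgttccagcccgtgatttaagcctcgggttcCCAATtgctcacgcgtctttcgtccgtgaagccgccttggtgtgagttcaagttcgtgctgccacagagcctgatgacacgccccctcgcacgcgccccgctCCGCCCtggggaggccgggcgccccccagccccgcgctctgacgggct
*Efemp1*, chr11:28852955-28853203, plus strand: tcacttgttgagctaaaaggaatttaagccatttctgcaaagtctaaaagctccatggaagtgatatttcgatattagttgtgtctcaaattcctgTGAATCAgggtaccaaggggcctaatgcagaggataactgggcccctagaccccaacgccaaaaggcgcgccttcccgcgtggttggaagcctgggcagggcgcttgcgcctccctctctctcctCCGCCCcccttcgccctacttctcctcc
The *Fbln1* stretch held 2 matches to CAGAC and the *Fbln5* stretch 2 to GGGCGG and 1 to CCAAT, while the *Efemp1* stretch held 1 to TGANTCA and 1 to GGGCGG. GC content was 46.4%, 65.2% and 53.6%, against a median of 52.4% over 32851 windows. *Fbln1* and *Fbln5* have 2 listed starts each, and the matches differ between them. The window of the second *Fbln1* start had 62.4% GC, 2 matches to CAGAC and 1 to GGGCGG. That of the second *Fbln5* start had 49.6% GC, 2 matches to CAGAC and 0 to GGGCGG or CCAAT. Both of these windows overlap an annotated exon. Of all windows of 250 bases before a RefSeq start, 42.2% held CAGAC, 32.7% GGGCGG, 33.8% CCAAT, 6.75% TGANTCA and 12.4% TATAAA. A match is a description of the letters and not a site. RefSeq windows were matched for 7 of the 10 genes, all but *Eln*, *Mfap4* and *Mfap5*.

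*Fbn1* encodes fibrillin-1, the main subunit of microfibrils, and lies on the minus strand at chr2:125300594-125507993 (GRCm38, as are all gene positions here), where *Gm9913* overlaps it on the other strand. It stood at 3408 CPM (95% interval 3315 to 3502) in intact and 3562 (3439 to 3689) in callus *Pi16*-type cells. *Col15a1*-type cells held 1282 (1164 to 1409) and 1486 (1279 to 1717), and *Thbs4*-type cells 620 (487 to 778) and 989.7 (903 to 1083). The level fell in that order in both libraries with no overlap of intervals. BMSC-type cells, at 1021.5 (863 to 1201), overlapped the callus *Thbs4*-type, and osteoblast-type cells were far lower at 51.7 (37.2 to 69.9), with 61.9% of their *Fbn1* UMIs in 3 cells. Among *Pi16*-type cells 97.4% (intact) and 96.4% (callus) carried *Fbn1*, as did 78.9% of BMSC-type and 13.9% of osteoblast-type cells.

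*Mfap5* encodes the microfibril-associated glycoprotein MAGP-2 (chr6:122505845-122529290, plus strand). *Pi16*-type cells held 3145 CPM (3056 to 3235) in the intact and 2727 (2619 to 2838) in the callus library. *Col15a1*-type cells held 1101 (992 to 1219) and 1009.5 (840.3 to 1203), and *Thbs4*-type cells 862 (704 to 1046) and 1600.2 (1489 to 1718). The last 2 types overlapped in the intact library, whereas in the callus library the *Thbs4*-type was the higher by summed UMIs. The median callus cell stood at 1208 CPM in the *Col15a1*-type and 1162 in the *Thbs4*-type, and 3 cells held 35.2% and 30.2% of their *Mfap5* UMIs. BMSC-type cells had 10 *Mfap5* UMIs, all in 1 cell, and osteoblast-type cells had 0, which allows up to 3.69 CPM. In the *Pi16*-type, 94.8% of 192 thinned cells (intact) and 90% of 110 (callus) carried *Fbn1* together with *Mfap5*.

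*Mfap4* encodes a microfibril-associated protein that binds tropoelastin and fibrillin (chr11:61485431-61488900, plus strand, overlapped by *Mapk7* on the other strand). It was high in the *Thbs4*-type, at 611 CPM (479 to 769) in the intact and 645.9 (576 to 722) in the callus library, and 62.5% and 54.9% of those cells carried it. Intact *Pi16*-type cells had 1 UMI, 0.665 CPM, and callus *Pi16*-type cells 35 UMIs, 39.6 CPM (27.6 to 55.1). *Col15a1*-type cells had 14 and 24 UMIs, 41.4 and 194 CPM, and 3 cells held 92.9% and 91.7% of them. BMSC- and osteoblast-type cells had 0 UMIs, which allows up to 20.8 and 3.69 CPM. *Thbs4*-type cells held 80.2% (95% Clopper-Pearson interval 70.6 to 87.8) of the 91 *Mfap4* UMIs of intact fibroblasts and 81.8% (77.5 to 85.5) of the 379 of callus fibroblasts. Within the *Thbs4*-type, 3 cells held 61.6% of the intact and 30% of the callus *Mfap4* UMIs. The intervals take each UMI as independent, so they leave out the spread between cells.

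*Eln* encodes tropoelastin, the elastic core of the fibre (chr5:134702593-134747323, minus strand, overlapped by *Gm30003* on the other strand). In intact cells it stood at 988 CPM (818 to 1183) in the *Thbs4*-type, 531 (495 to 569) in the *Pi16*-type and 189 (146 to 242) in the *Col15a1*-type. In callus cells the order was the same, at 2059 (1932 to 2191), 491 (446 to 539.9) and 291 (204 to 402.5), and in neither library did neighbouring intervals overlap, although with cells typed by clusters the callus *Col15a1*-type stood above the *Pi16*-type (log2 ratio 0.51). These totals rested on few cells: 3 cells held 57.6% of the *Eln* UMIs of the intact and 42.7% of those of the callus *Thbs4*-type, and the median cell stood at 448 and 749 CPM. *Eln* was carried by 62.5% and 64.7% of *Thbs4*-type cells, 47.9% and 38.2% of *Pi16*-type cells and none of the BMSC- or osteoblast-type cells after thinning, where 1 and 2 UMIs were found in all.

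*Fbln1* encodes fibulin-1, a calcium-binding glycoprotein of elastic fibres and basement membranes (chr15:85205949-85286535, plus strand). The *Thbs4*-type held 854 CPM (696 to 1037) in the intact but 271 (226 to 322) in the callus library, and 75% and 41.2% of its cells carried the gene. The *Pi16*-type held 90.4 (75.8 to 107) and 111 (90.1 to 135), and the *Col15a1*-type 74.0 (47.9 to 109) and 145 (86.2 to 229.7), overlapping each other in both libraries. In the callus the *Col15a1*-type also overlapped the *Thbs4*-type. The 20 untyped callus cells stood above all of these callus types at 493 (392 to 611) and held 25% of the *Fbln1* UMIs of callus fibroblasts. BMSC-type cells had 5 UMIs and osteoblast-type cells 2.

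*Fbln2* encodes fibulin-2, which binds fibrillin-1 and tropoelastin (chr6:91212455-91272540, plus strand). It was at similar levels in *Thbs4*-type cells, with 1306 CPM (1109 to 1528) intact and 1229 (1132 to 1333) callus, and in *Col15a1*-type cells, with 1202 (1088 to 1325) and 1284 (1092 to 1499.9), and the intervals of these types overlapped. *Pi16*-type cells were lower at 572 (535 to 612) and 815 (757 to 877). A single UMI was found in BMSC-type cells and 3 in osteoblast-type cells, although 84.2% to 93.2% of the *Col15a1*- and *Thbs4*-type cells of the 2 libraries carried the gene.

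*Fbln5* encodes fibulin-5, which tethers tropoelastin to microfibrils and to integrins and is needed for elastic fibre assembly (chr12:101746565-101819055, minus strand). It was the only one of the 10 whose highest level was in the BMSC-type beyond its interval, at 1168 CPM (998 to 1358), and 18 of 19 thinned BMSC-type cells carried it. Fibroblast types stood at 197 (175 to 220), 213 (167 to 268) and 159 (95.8 to 248) in the intact *Pi16*-, *Col15a1*- and *Thbs4*-type and at 231 (200 to 265), 299 (210 to 412) and 171 (136 to 212) in the callus. Neighbouring levels overlapped in both libraries. Osteoblast-type cells held 57.8 (42.5 to 76.9).

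*Efemp1* encodes fibulin-3, an extracellular glycoprotein of the fibulin family (chr11:28853204-28926743, plus strand). *Pi16*-type cells held 1007 CPM (957 to 1059) in the intact and 1045 (979 to 1115) in the callus library, and 82.3% and 82.7% of them carried it. *Col15a1*-type cells held 91.8 (62.4 to 130) and 129 (73.9 to 210), and *Thbs4*-type cells 50.2 from 6 UMIs and 43.8 (27.1 to 66.9) from 21 UMIs, all of them in 3 cells. Of all *Efemp1* UMIs of fibroblasts, 96.6% in the intact and 93.5% in the callus library came from the *Pi16*-type. BMSC-type cells had 8 UMIs in 3 cells and osteoblast-type cells 0.

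*Ltbp4* encodes latent TGF-β binding protein 4, which binds microfibrils and fibulin-5 (chr7:27305136-27337692, minus strand). In the intact library the *Col15a1*-type stood at 1139.8 CPM (1029 to 1259.5), above the *Thbs4*-type at 561 (435 to 712.5) and the *Pi16*-type at 309.7 (282 to 339). The callus *Col15a1*-type was lower, at 589.55 (462 to 741), and overlapped the *Thbs4*-type at 735.5 (661 to 816), both above the *Pi16*-type at 369 (330.2 to 411). In the *Col15a1*-type, 79.5% of 44 thinned cells (intact) and 52.6% of 19 (callus) carried *Fbln2* together with *Ltbp4*. BMSC-type cells had 1 UMI and osteoblast-type cells 2.

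*Emilin1* encodes an elastin- and fibulin-5-binding glycoprotein at the interface of elastin and microfibrils (chr5:30913402-30921277, plus strand). It was low in *Pi16*-type cells, at 15.9 CPM (10.2 to 23.7) and 27.2 (17.4 to 40.4). The BMSC-type held 181 (118 to 265), the osteoblast-type 103.4 (82.4 to 127.97) and the *Thbs4*-type 126 (70.3 to 207) intact and 87.5 (63.1 to 118) callus, with overlapping intervals. *Col15a1*-type cells held 65.1 (40.8 to 98.6) and 72.7 (33.2 to 138). Thinned shares were at most 31.3%, in the intact *Thbs4*-type. In callus neutrophils *Emilin1* had 112 of the 146 UMIs of the 10 genes, or 12.5 CPM.

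**Figure D2:**
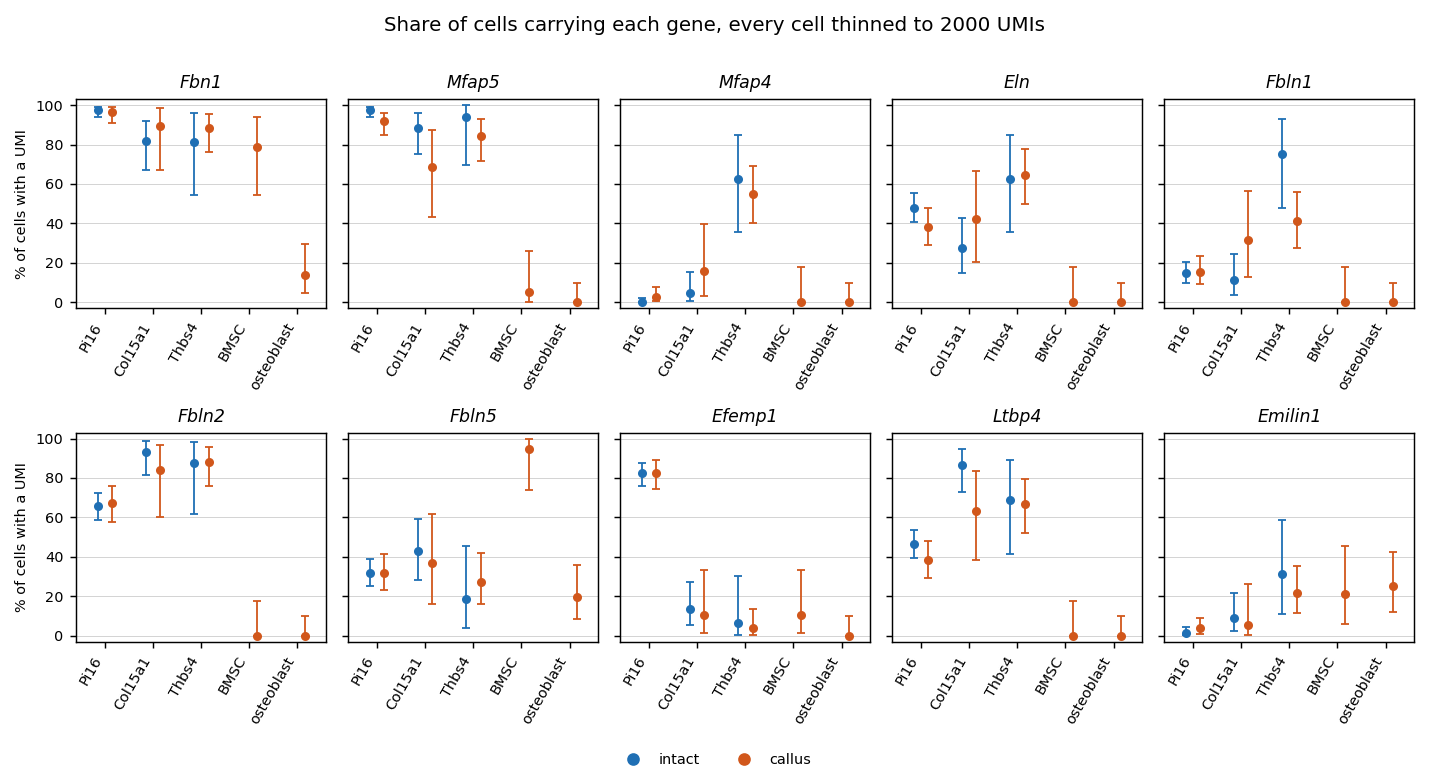
Percent of cells with a UMI of each gene among cells of at least 2000 UMIs, each thinned to 2000, by type, with exact Clopper-Pearson 95% bars, intact in blue and callus in orange. *Fbn1* and *Mfap5* are in nearly all *Pi16*-type cells, *Efemp1* in 82.3% and 82.7% of them, *Mfap4* mostly in *Thbs4*-type cells and *Fbln5* in 94.7% of BMSC-type cells.

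The *Col15a1*-type was compared with the *Pi16*-type of the same library, so that the 2 share depth and preparation. Differences are log2 ratios of CPM with the exact interval for counting error, taken for genes with at least 20 UMIs in the 2 groups together, and a gene counts as called at 2-fold. In the intact library 3 of 9 genes were at least 2-fold higher in the *Col15a1*-type, where 8.49% of 8125 genes were, and 4 were lower, where 11.7% were. *Efemp1* was lower by 10.98-fold (log2 ratio −3.46, −4.02 to −2.95), followed by *Mfap5* (−1.51), *Eln* (−1.49) and *Fbn1* (−1.41). *Emilin1* (2.03, from 22 and 24 UMIs), *Ltbp4* (1.88, 1.68 to 2.08) and *Fbln2* (1.07) were higher. Without the 3 cells with most of its UMIs in each group *Efemp1* stood at −4.10. With cells typed by clusters *Eln* was under 2-fold (−0.59), and with edgeR's TMM scaling, which lowered every gene by 0.17 on the log2 scale here, *Fbln2* was (0.91). Over the 9 genes the median log2 ratio was −0.29, against 0.04 over all genes.

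In the callus library 2 of 10 genes were higher, where 9.07% of 6438 genes were, and 3 lower, where 14.3% were. *Efemp1* (−3.02), *Mfap5* (−1.43) and *Fbn1* (−1.26) were lower as in the intact library. The higher calls were *Mfap4* (2.29) and *Emilin1* (1.42, 0.13 to 2.58), the latter from 9 and 24 UMIs. With the 3 cells with most UMIs of the gene left out of each group, 0 genes were called higher, and *Efemp1*, with 87.5% of its 16 UMIs in 3 cells, moved to −5.64. *Eln* stood at −0.76, at −2.02 without the 3 cells with most *Eln* UMIs and at 0.51 with cells typed by clusters, so its direction depended on the typing. *Ltbp4* stood at 0.68 (0.29 to 1.05) and *Fbln2* at 0.66 (0.40 to 0.91). The median was 0.38, against 0.01 over all genes.

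The *Thbs4*-type was also set against the *Pi16*-type, with the same *Pi16*-type cells as reference. In the callus library 4 of 10 genes were higher, where 7.45% of 7410 genes were, and 2 lower, where 9.72% were. *Mfap4* was 16.3-fold higher (4.03, 3.52 to 4.57), *Eln* 4.19-fold (2.07, 1.90 to 2.23), *Emilin1* 3.22-fold (1.69) and *Fbln1* 2.44-fold (1.29), and *Ltbp4* stood just short of 2-fold at 0.99. *Efemp1* was 23.9-fold lower (−4.58, −5.28 to −3.96) and *Fbn1* 3.60-fold (−1.85), and *Mfap5* was lower by less than 2-fold (−0.77, −0.89 to −0.65). The median log2 ratio over the 10 genes was 0.79, against −0.04 over all genes. Without the 3 cells with most UMIs of the gene in each group, *Eln* stood at 1.80 and *Mfap4* at 6.38. For *Mfap4* these cells held 85.7% of the 35 UMIs of the *Pi16*-type but 30% of those of the *Thbs4*-type. The rise thus follows from an unequal removal that left few *Pi16*-type UMIs.

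In the intact library, with 18 *Thbs4*-type cells, 4 of 10 genes were higher, where 8.58% of 7702 genes were, and 3 lower, where 21.5% were. *Mfap4* had 73 UMIs against 1, a log2 ratio of 9.85 (7.32 to 15.17), *Fbln1* was 9.45-fold higher (3.24, 2.86 to 3.62), and *Emilin1* (2.98) and *Fbln2* (1.19) followed. *Efemp1* (−4.33), *Fbn1* (−2.46) and *Mfap5* (−1.87) were lower. *Eln* stood at 0.90 (0.60 to 1.18), but at 0.08 without the 3 cells with most *Eln* UMIs in each group, while on the same footing *Fbln2* moved from 1.19 to 0.77 and *Efemp1* from −4.33 to −6.71. The median was 0.88, against −0.16 over all genes. *Eln* and *Mfap4* were carried together by 50% of 16 intact and 43.1% of 51 callus *Thbs4*-type cells, and *Fbln1* and *Mfap4* by 50% and 21.6%. This intact comparison was added after the data had been seen.

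**Figure D3:**
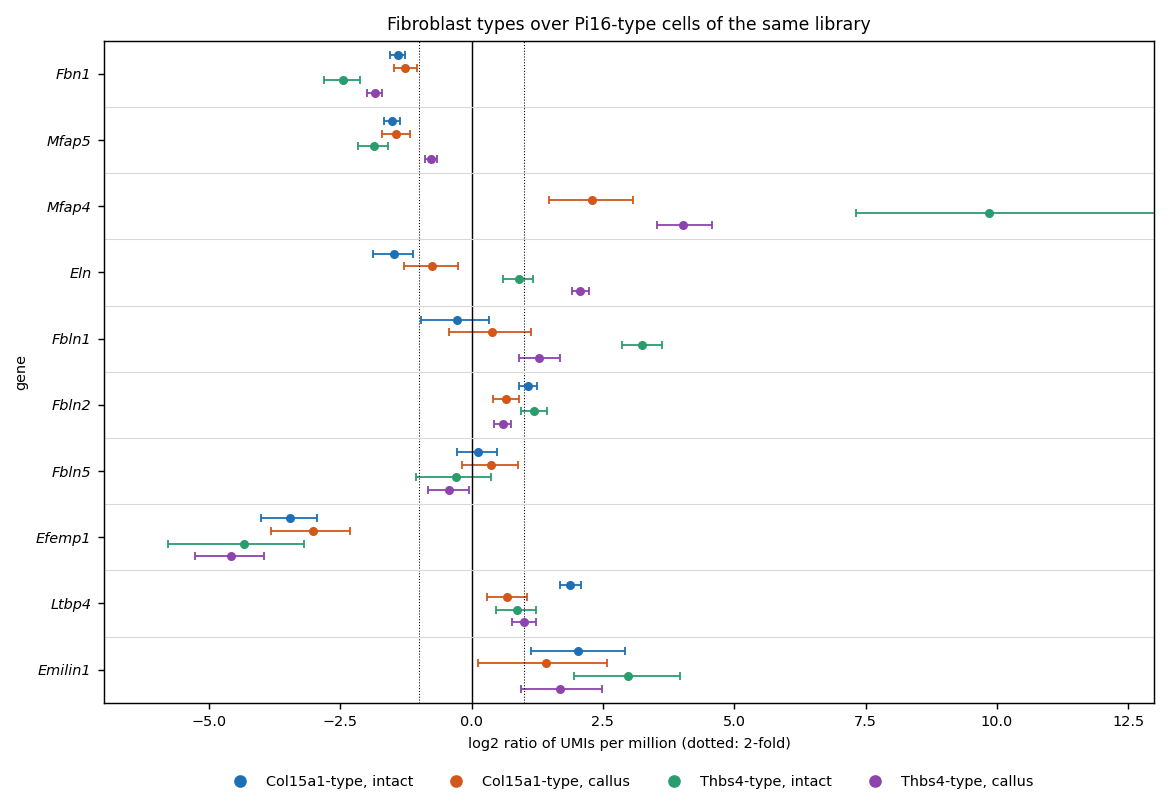
Log2 ratio of CPM of *Col15a1*-type (intact blue, callus orange) and *Thbs4*-type cells (intact green, callus purple) over *Pi16*-type cells of the same library, with exact 95% bars for counting error and dotted lines at 2-fold; the bar of *Mfap4* in the intact *Thbs4*-type runs past the axis to 15.17. *Efemp1*, *Fbn1* and *Mfap5* lie left of 0 in all 4 comparisons, which share their *Pi16*-type cells in pairs. *Mfap4* in the intact *Col15a1*-type is left out at 15 UMIs in all.

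The other genes of the elastic fibre pathway were taken from a list of 51 genes. In the intact *Col15a1*-type over *Pi16*-type comparison 34 had enough UMIs, of which 4 were higher and 8 lower, beside the 8.49% and 11.7% of all genes. *Fbln7*, a fibulin, had 23 UMIs against 0, and *Lox*, the lysyl oxidase that crosslinks tropoelastin, stood at 1.79 and *Tgfb1*, a latent ligand, at 1.78. The lowest were *Emilin2* (−2.39), *Adamtsl4* (−2.15), which encodes a fibrillin-binding protein, and *Adamtsl5* (−2.03). In the callus 3 of 33 were higher (*Lox* at 1.66, *Hmcn1* at 1.37 and *Cst3* at 1.30) and 9 lower, beside 9.07% and 14.3% of all genes, with *Adamtsl4* at −2.92, *Emilin2* at −2.26 and *Timp1* at −2.02.

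For the callus *Thbs4*-type over the *Pi16*-type, 9 of 36 pathway genes were higher and 8 lower, beside 7.45% and 9.72% of all genes. *Fbln7* had 203 UMIs against 3 (6.96), *Tgfb3* stood at 2.99 and *Lox* at 2.81, or 554 against 79.3 CPM. The lowest were *Adamtsl3* (−3.05), *Adamtsl4* (−2.42) and *Emilin2* (−2.27). In the intact library 8 of 33 were higher, led by *Lox* (5.14), *Cst3* (2.83) and *Serpina3n* (2.57), and 9 lower, beside 8.58% and 21.5% of all genes, with *Adamtsl4* at −4.11, *Emilin2* at −2.23 and *Adamtsl5* at −2.11. *Lox* was thus among the higher calls in each of these 4 comparisons, of which those within a library share their *Pi16*-type cells.

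The marrow and bone types of the callus library were set against all callus fibroblasts, which both comparisons share. In the BMSC-type 2 of 10 genes were at least 2-fold higher, where 18.4% of 8489 genes were, and 8 were lower, where 19.2% were. *Fbln5* was 5.33-fold higher (2.41, 2.14 to 2.68), and *Emilin1* 3.69-fold (1.88, 1.19 to 2.54) from 26 UMIs. *Fbn1* was lower by less than the others (−1.26, −1.50 to −1.02), followed by *Fbln1* (−2.51, and −3.38 without the 3 cells with most of its UMIs in each group), *Efemp1* (−3.42) and *Mfap5* (−4.92). *Ltbp4* (−6.14, −11.45 to −3.66), *Eln* (−7.09, −12.40 to −4.61) and *Fbln2* (−7.14, −12.44 to −4.66) had 1 UMI each in the 20 cells. *Mfap4*, at 0 UMIs, stood at a log2 ratio of −3.46 or lower by the limit of 3 counts. The median over the 10 genes was −3.44, against 0.15 over all genes. TMM scaling lowered every gene by 0.47 on the log2 scale and left *Fbln5* at 1.94.

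In the osteoblast-type 1 of 10 genes was higher, where 6.77% of 9035 genes were, and 9 were lower, where 34.1% were. *Emilin1* was the higher one, at 2.11-fold (1.08, 0.62 to 1.54), and it fell under 2-fold without the 3 cells with most *Emilin1* UMIs in each group (0.91), with likely doublets removed (0.94) and with cells typed by clusters (0.24). *Fbln5* (−1.92) and *Fbn1* (−5.56) were lower with 47 and 42 UMIs, and *Fbln5* stood at −0.65 by the mean of single cells' CPM and at −0.98 after thinning. Without the 3 cells with most UMIs of the gene in each group, *Fbln5* stood at −2.61 and *Fbn1* at −6.75. *Fbln1* (−6.33, −9.38 to −4.47) and *Ltbp4* (−7.64, −10.69 to −5.78) had 2 UMIs each, *Fbln2* (−8.05, −10.33 to −6.50) had 3 and *Eln* (−8.59, −11.64 to −6.73) had 2. *Mfap4*, *Efemp1* and *Mfap5* had 0, with log2 bounds of −5.96, −7.34 and −9.15. The median was −6.84, against −0.60 over all genes, and TMM scaling raised every gene by 0.42.

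Some markers of other cells moved with these types. The chondrocyte list summed to 2263 CPM in the osteoblast-type, with 5 of 6 genes detected and *Matn3* at 0, against 23.6 in callus fibroblasts, with 3 of 6. The neutrophil list stood at 361 in the BMSC-type, 182 in the osteoblast-type and 312 in callus fibroblasts, and the BMSC-type had 1 of 7 mural genes, at 153 CPM. Their part in these results was not tested. Osteoblast-type cells had a median of 20686 UMIs, against 7567.5 in fibroblasts.

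Of the pathway list, 42 genes were compared in each. In the BMSC-type 8 were higher and 15 lower, beside 18.4% and 19.2% of all genes. The highest were *Ltbp2* (6.94), whose product binds fibrillin-1, and the neutrophil serine protease genes *Elane* (6.002) and *Prtn3* (5.91). The lowest with a UMI were *Fbln7* (−4.39), *Timp3* (−4.37) and *Mmp2* (−3.98). In the osteoblast-type 6 were higher and 24 lower, beside 6.77% and 34.1% of all genes, with *Ltbp2* (3.76), *Timp1* (3.58) and *Tgfb1* (2.74) highest and *Emilin2* (−8.10), *Adamtsl4* (−5.99) and *Hmcn1* (−5.04) lowest among genes with a UMI.

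**Figure D4:**
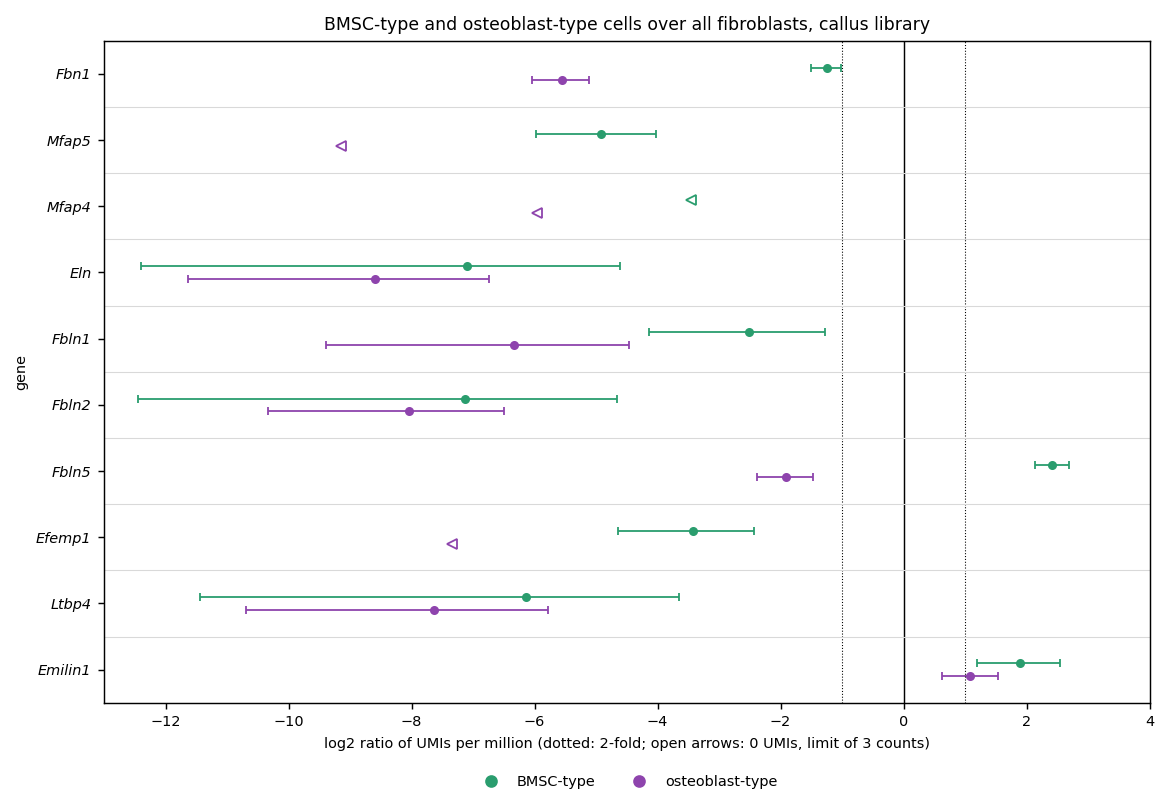
Log2 ratio of CPM of BMSC-type (green) and osteoblast-type (purple) cells over all fibroblasts of the callus library, with exact 95% bars for counting error, dotted lines at 2-fold and open arrows at the limit of 3 counts where the gene had 0 UMIs. *Fbln5* lies at 2.41 in the BMSC-type and at −1.92 in the osteoblast-type, *Emilin1* lies right of 0 in both, and the other 8 genes lie left of 0.

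The callus and intact libraries were then compared within gated fibroblasts. One holds callus and the other femur with surrounding muscle, so tissue and fracture cannot be told apart in these ratios. Over all fibroblasts, *Mfap4* was the 1 gene of 10 at least 2-fold higher in the callus library, where 4.45% of 9989 genes were, and 0 were lower, where 2.74% were. *Mfap4* stood at 45.2 CPM in intact and 229 in callus fibroblasts, 5.07-fold (2.34, 2.01 to 2.69, and 2.93 without the 3 cells with most of its UMIs in each group). Those cells held 49.5% of the intact but 24.5% of the callus *Mfap4* UMIs. *Eln* went from 509 to 948 CPM (0.90, 0.78 to 1.01), *Emilin1* from 31.3 to 49.0 (0.65, 0.15 to 1.14), *Fbln1* from 139 to 198 (0.51) and *Fbln2* from 722 to 977 (0.44). *Efemp1* (−0.39), *Mfap5* (−0.32) and *Fbn1* (−0.22) were lower, and the intervals of *Fbln5* (0.16) and *Ltbp4* (0.04) held 0. The median over the 10 genes was 0.30, against 0.03 over all genes.

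The mix of types differed between the libraries. *Thbs4*-type cells were 6.29% (3.77 to 9.76) of intact and 24.1% (18.5 to 30.4) of callus fibroblasts, and *Pi16*-type cells 74.1% (68.6 to 79.1) and 57.5% (50.6 to 64.3). The *Thbs4*-type held 11.5% (9.62 to 13.6) of the *Eln* UMIs of intact fibroblasts and 63.0% (60.6 to 65.4) of those of callus fibroblasts. These intervals leave out the spread between cells, and 3 cells held 57.6% of the intact and 42.7% of the callus *Eln* UMIs of that type. Mural genes summed to 9.44 CPM in intact and 114 in callus fibroblasts (5 and 6 of 7 detected, *Cnn1* at 0 in both), but to 27.1 in the callus *Thbs4*-type, where *Cnn1* and *Notch3* were at 0, and to 943 in the 20 untyped callus cells. The untyped callus cells held 6.96% of *Eln* and 2.64% of *Mfap4* UMIs.

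Within the *Pi16*-type the 2 libraries were close. *Mfap4* was the 1 gene of 10 called higher, where 3.2% of 8781 genes were, and 0 were lower, where 2.62% were. It had 35 UMIs against 1 (5.90, 3.33 to 11.24), and 85.7% of the 35 were in 3 of the 122 cells. *Mfap4* had no ratio, and so was not called, with cells typed by clusters, after thinning, or without the 3 cells with most of its UMIs in each group. In the 7 alternatives that gave it a ratio, it stood at 4.77 or higher. *Fbln2* (0.51, 0.37 to 0.66) and *Ltbp4* (0.25, 0.04 to 0.46) were higher and *Mfap5* (−0.21, −0.28 to −0.13) lower, all under 2-fold, and the intervals of *Fbn1*, *Eln*, *Fbln1*, *Fbln5*, *Efemp1* and *Emilin1* held 0. The median was 0.24, against 0.03 over all genes. *Mfap4* was in 6 callus *Pi16*-type cells, looked at after its level was seen. These 6 held 1638 CPM of *Eln*, 384.5 of *Fbln1*, 267.5 of *Thbs4* and 217 of *Cilp*, against 408, 91.1, 26.7 and 9.72 in the other 116. They also held 3661 CPM of *Pi16*, against 2391.5, and 2 of the 6 and 12 of the 116 had any UMI of the *Thbs4* list, so that the median cell of either group had 0.

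The same comparison within the *Col15a1*-type and the *Thbs4*-type was added after the data had been seen. In the *Col15a1*-type, with 19 callus cells, 1 of 10 genes was higher, where 5.6% of 3896 genes were, and 0 were lower, where 8.19% were. The higher gene was *Mfap4* (2.23, 1.22 to 3.29), again mostly in 3 cells of each library. Without these cells *Mfap4* lay below the UMI minimum, and after thinning it had no ratio either. In the 9 alternatives that gave it a ratio, it stood at 1.61 or higher. *Ltbp4* was lower, from 1139.8 to 589.55 CPM (−0.95, −1.33 to −0.59), and stood at −1.06 without the 3 cells with most of its UMIs in each group. *Fbln1* stood at 0.97 (0.01 to 1.91), and at 0.39 without the 3 cells with most *Fbln1* UMIs in each group. The median was 0.35, against 0.00 over all genes.

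In the *Thbs4*-type, with 18 intact and 51 callus cells, 1 of 10 genes was higher, where 15.4% of 4571 genes were, and 1 lower, where 5.99% were. The 2 groups differed in *Thbs4* itself, at 695 CPM intact and 2650 callus, with a UMI in 10 and 49 cells. *Cilp* stood at 1851 and 2434 CPM. Whether the ratios below reflect such a difference in the cells typed was not tested. *Eln* was 2.08-fold higher in the callus library (1.06, 0.78 to 1.35), and stood at 1.31 without the 3 cells with most *Eln* UMIs in each group but at 0.77 after thinning. *Fbln1* was 3.15-fold lower, from 854 to 271 CPM (−1.66, −2.04 to −1.27), and the median cell went from 778 to 215 CPM. *Mfap5* (0.89), *Fbn1* (0.68) and *Ltbp4* (0.39) were higher by less than 2-fold, and *Ltbp4* was lower (−0.53) with cells typed by clusters. *Mfap4* stood at 0.08 (−0.29 to 0.47), and at 0.71 without the 3 cells with most of its UMIs in each group. Those cells held 61.6% of the intact but 30% of the callus *Mfap4* UMIs. The median was 0.09, against 0.14 over all genes.

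**Figure D5:**
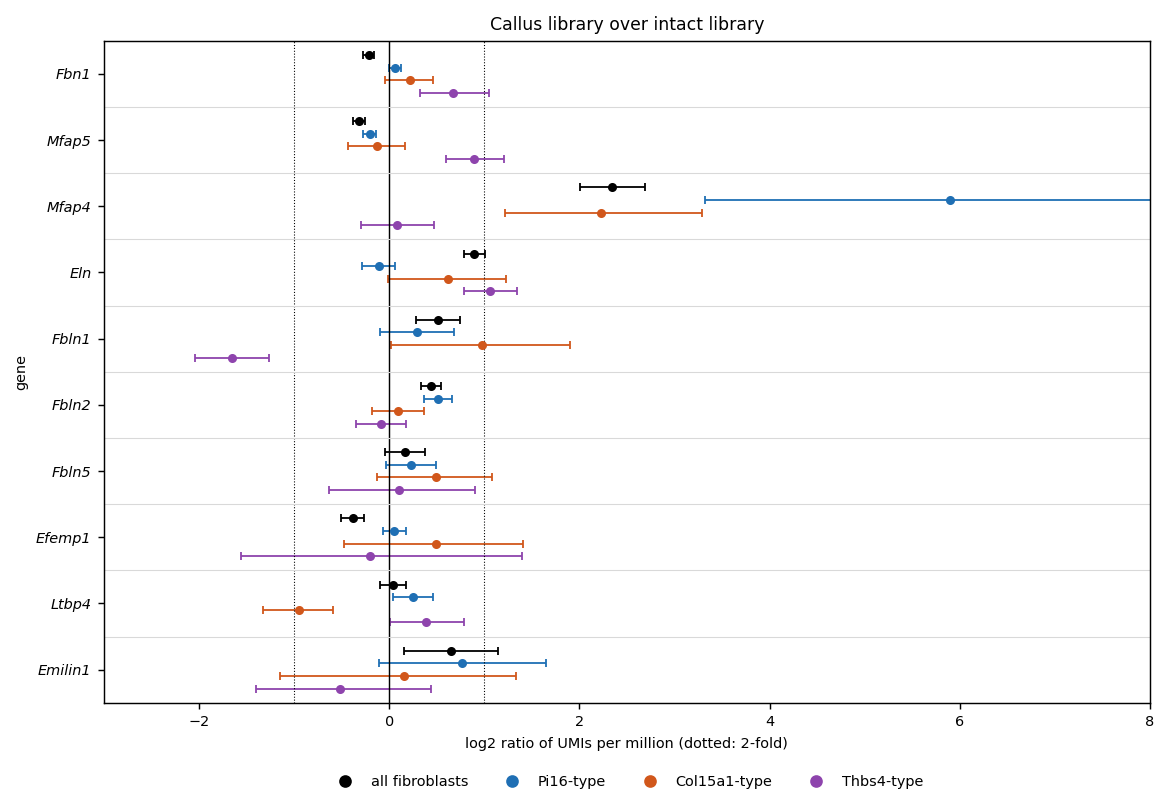
Log2 ratio of CPM in the callus over the intact library for all fibroblasts (black), *Pi16*-type (blue), *Col15a1*-type (orange) and *Thbs4*-type cells (purple), with exact 95% bars for counting error and dotted lines at 2-fold; the bar of *Mfap4* in *Pi16*-type cells runs past the axis to 11.24. *Mfap4* lies at 2.34 over all fibroblasts and at 0.08 in the *Thbs4*-type, and *Fbln1* lies at −1.66 in the *Thbs4*-type; the black values include the cells of the other 3.

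Among the 51 pathway genes, 9 of the 41 compared were higher in callus fibroblasts and 0 lower, beside 4.45% and 2.74% of all genes. *Elane* had 19 UMIs against 1 (4.53). Neutrophils were 303 of the 1207 intact and 748 of the 3295 callus cells kept, and their part in this ratio was not tested. *Hmcn1*, which encodes the fibulin-related hemicentin-1, went from 6.46 to 81.0 CPM (3.65) and *Fbln7* from 13.4 to 146 (3.44). The lowest were *Adamtsl3* (−0.81), *Tgfb2* (−0.56) and *Adamtsl4* (−0.55). Within the *Pi16*-type 5 of 37 were higher and 0 lower, beside 3.2% and 2.62% of all genes, with *Hmcn1* at 2.23, *Lox* at 1.94 and *Timp1* at 1.54 highest and *Tgfb1* (−0.76), *Adamtsl3* (−0.48) and *Ctsl* (−0.45) lowest. In the *Thbs4*-type 6 of 27 were higher, with *Fbln7* at 3.66, *Hmcn1* at 3.22 and *Timp1* at 1.69, and 2 lower, *Timp3* at −2.06 and *Ctsl* at −1.19, beside 15.4% and 5.99% of all genes. In the *Col15a1*-type 1 of 25 was higher and 0 lower, beside 5.6% and 8.19% of all genes.

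Within the *Pi16*-type, cells rich in *Ptx3*, *Has1* and *Tnfaip6* (at least 16 UMIs of the 3 genes per 10000) were set against those with under 4, a split added after the data had been seen. In the intact library 0 of 8 genes were higher, where 5.78% of 6388 genes were, and 0 lower, where 2.65% were. The median over the 8 was −0.16, against −0.05 over all genes. In the callus library, with 48 and 46 cells, 0 of 9 were higher, where 5.42% of 4890 genes were, and 3 lower, where 4.03% were. *Mfap4* had 3 UMIs against 32 (−3.68, −6.03 to −2.01), *Eln* stood at 289 against 793 CPM (−1.45) and *Fbln1* at 77.2 against 189 (−1.29). Of the 35 *Mfap4* UMIs of callus *Pi16*-type cells, 85.7% were in 3 cells. Without the 3 cells with most of its UMIs in each group *Mfap4* lay below the UMI minimum here. *Ltbp4* was near 2-fold (−0.98), and *Efemp1* was higher in the *Ptx3*-rich cells (0.46, 0.23 to 0.69). With cells typed by clusters *Eln* (−0.81) and *Fbln1* (−0.60) were under 2-fold. The median was −0.47, against −0.04. Of the pathway list, 2 of 31 genes were higher and 0 lower in the intact and 1 of 30 higher and 1 lower in the callus library, beside the shares of all genes given above.

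The genes whose levels ran most like each of the 10 were taken by Pearson's r of log2(CPM + 10) over the 8 groups of at least 15 cells, which share 2 libraries. They are the nearest of 5669 genes, and over only 8 groups a high r is easily reached among so many. *Fbn1* was most like *Rab7b*, *Man1a* and *Acadsb* (r = 0.99 for the first), and *Mfap5* most like *Dpt* (0.99), *Tns1* and *Rcan1*. *Mfap4* ran with *Gpnmb* (0.97), *Thbs4* and *Cilp*, the last 2 being genes of the list that typed the cells, and *Eln* with *Nfix* (0.97), *Col14a1* and *Aebp1*. *Fbln1* ran with *Arsa* (0.98), *Pam* and *Cir1*, *Fbln5* with *Pex19* (0.99), *Mkln1* and *Ech1*, and *Emilin1* with *Leprotl1* (0.97), *Emp2* and *Olfml3*. *Fbln2* and *Ltbp4* were among each other's 3 nearest genes (0.99), and *Efemp1* was most like *Trio*, *Ddr2* and *Cotl1*. Their sum was most like *Ahnak* (0.98), *Cast* and *Stxbp6*. Among the 10 themselves, r was 0.91 for *Fbn1* and *Efemp1*, 0.88 for *Fbn1* and *Mfap5*, 0.92 for *Eln* and *Fbln2*, and −0.83 for *Efemp1* and *Emilin1*. *Eln* and *Fbln2* each had 1 to 3 UMIs in the BMSC- and osteoblast-type. Over intact *Pi16*-type cells, *Eln* and *Fbln2* went opposite ways in the *Col15a1*-type (−1.49 and 1.07) and the same way in the *Thbs4*-type (0.90 and 1.19).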

How the data were processed

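Single cells sorted for tdTomato were profiled with the 10x 3′ kit (V3), with 1 library of intact femur and muscle and 1 of fracture callus. Cell Ranger (6.0.0 per the file headers) was run by the authors on mm10, and they deposited its UMI counts per gene and barcode without normalization. The processing notes and methods name no annotation, and how doublets were treated before deposit is not given in the sources used here.

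The 10 genes, the marker lists, the list of 51 pathway genes and the comparisons were chosen with earlier results of these data known. A cell was kept at 500 or more detected genes and 10% or less of mitochondrial UMIs. Marker UMIs per 10000 were summed per cell, and a cell took the type whose sum was largest relative to its limit (32 for *Pi16*, *Col15a1* and BMSC lists, 8 for the *Thbs4* and osteoblast lists). Stromal cells needed 32 pan-stromal UMIs per 10000 and less than 8 pan-haematopoietic, 8 endothelial, 32 myogenic, 128 erythroid and 128 neutrophil UMIs. These limits were set after the distributions had been seen. They excluded 31 stromal cells and left 46 between the stromal and other classes.

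Raw UMIs were summed per type and library. With 1 library per condition no test was run. Levels have exact Poisson, shares exact Clopper-Pearson and log2 ratios exact conditional binomial intervals, all at 95%, and 0 UMIs has the limit of 3 counts. Ratios were taken for genes with at least 20 UMIs in both groups together and called at 2-fold. Median UMIs per cell were 7271 (intact) and 6928 (callus) in the *Pi16*-type and 7527 and 6316 in the *Col15a1*-type. They were 7452.5 and 8974 in the *Thbs4*-type and 7039.5 in the callus BMSC-type. In the *Ptx3* split, intact *Ptx3*-rich cells held 723837 UMIs in 87 cells and the others 362874 in 68. Depths of all fibroblasts, osteoblast-type cells, neutrophils and endothelial cells are given with the results. All 10 genes are named, and of the pathway list at most the 3 highest and 3 lowest ratios per comparison. The alternatives were stricter and looser cell filters, removal of cells by their Scrublet score at a rate of 0.8% per 1000 barcodes (18 intact and 105 callus cells, since Scrublet itself called 3 and 4), doubled gate limits, types from Leiden clusters, edgeR's TMM factors, the mean of single cells' CPM, thinning to 2000 UMIs, subtraction of the level in neutrophils, no UMI minimum and a fold of 1.5. Another, without the 3 cells with most UMIs of a gene, and 5 of the 12 comparisons were added after seeing the data.

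Other cells' lists, summed over intact and callus fibroblasts, gave 7.95 and 19.4 CPM for pan-haematopoietic, 179 and 312 for neutrophil, 11.9 and 19.4 for endothelial, 105 and 169 for myogenic, 1054 and 182 for erythroid, 9.44 and 114 for mural, 15.4 and 23.6 for chondrocyte, 4.47 and 7.26 for Schwann and 141 and 429 for osteoclast genes.

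Gene positions are from the GENCODE annotation of GRCm38 and upstream sequences from RefSeq. Scripts were tested on simulated data. Tools were python 3.11.15, numpy 2.4.6, scipy 1.17.1, pandas 2.3.3, scanpy 1.11.5, igraph 0.11.9, matplotlib 3.10.9 and edgeR 4.0.16.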

Additional observations from a re-analysis of the deposited data

Results flagged for a closer look

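The callus over intact log2 ratio went opposite ways in different fibroblast types for 3 of the 10 genes, with intervals for counting error that left out 0 on both sides. With 1 library per condition these differences between types were not tested. *Ltbp4* stood at 0.25 in *Pi16*-type and 0.39 in *Thbs4*-type cells but at −0.95 in *Col15a1*-type cells, and with cells typed by clusters the *Thbs4*-type value turned to −0.53. *Mfap5* stood at −0.21 in *Pi16*-type and 0.89 in *Thbs4*-type cells. *Fbln1* stood at 0.97 in *Col15a1*-type cells, from 18 and 25 UMIs, and at −1.66 in *Thbs4*-type cells. Without the 3 cells with most *Fbln1* UMIs in each group it stood at 0.39 and −1.42.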

How the results depend on the processing

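Counts of the 10 genes called depended most on thinning, on a few cells and on the fold. At 1.5-fold, 3 genes were higher in callus fibroblasts (12.3% of all genes were), 2 in callus *Pi16*-type (11.7%), 4 in callus *Col15a1*- over *Pi16*-type (21.2%), 3 in callus over intact *Col15a1*-type (17.1%; 1 lower, 19%) and 3 in callus over intact *Thbs4*-type cells (28.1%). After thinning to 2000 UMIs, 0 were higher in callus over intact *Pi16*-, *Col15a1*- (1 lower) and *Thbs4*-type cells and in the osteoblast-type, and 1 was higher in callus *Col15a1*- over *Pi16*-type and 1 lower in *Ptx3*-rich callus cells. Without the 3 cells with most UMIs of each gene, 0 were higher in callus over intact *Pi16*- and *Col15a1*-type (2 lower), callus *Col15a1*- over *Pi16*-type and the osteoblast-type. With types from clusters, 0 were higher in callus over intact *Pi16*-type and the osteoblast-type and 0 lower in *Ptx3*-rich callus cells. Removing likely doublets left 0 higher in the osteoblast-type. Doubled gate limits gave 3 higher in callus over intact *Col15a1*-type and 2 in *Thbs4*-type cells, TMM 1 lower in the former and the mean of cells 2 lower in the latter. Thinned groups have fewer UMIs, and *Mfap4* then lay below the minimum in *Pi16*-type cells. It also had no ratio in callus over intact *Col15a1*-type cells after thinning, and in *Pi16*-type cells with types from clusters. Without the 3 cells with most of its UMIs, *Mfap4* also lay below it in callus over intact *Pi16*- and *Col15a1*-type cells. The same held in callus *Col15a1*- over *Pi16*-type cells and in the callus *Ptx3* split, so the gene was not compared there. The cause of the other changes was not tested. Of 1161 values of single genes under the alternatives, 1036 lay within the interval of the value given, 125 outside it and 0 changed sign when called. This total includes 112 values without the UMI minimum, a setting that cannot move a ratio. Outside the interval lay 29 of 88 values after thinning, 28 of 107 with types from clusters and 27 of 95 without the top 3 cells. Values under 2-fold did change sign, such as *Eln* in callus *Col15a1*- over *Pi16*-type cells (−2.02 to 0.51). *Efemp1* in callus over intact cells even passed 2-fold in both directions. It ranged from −1.55 to 2.19 in the *Col15a1*-type (0.49 as given by the main setting) and from −1.97 to 1.94 in the *Thbs4*-type (−0.20). No paired analysis was possible because each condition has 1 library. *Fbln1* in callus over intact *Thbs4*-type cells ranged from −1.81 to −1.07 and was 2-fold lower throughout. Depth limits *Emilin1*, with 9 to 24 UMIs in *Pi16*- and *Col15a1*-type groups, and the 1 to 3 UMIs of *Eln*, *Fbln2* and *Ltbp4* in BMSC- and osteoblast-type cells.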

Other observations

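Outside the stromal gate, endothelial cells (28 intact and 104 callus, median 2432.5 and 4418 UMIs) held several of the 10 genes. *Ltbp4* stood at 681 CPM (507 to 896) in intact and 650.4 (581 to 725) in callus endothelial cells and *Fbln2* at 481 (337 to 666) and 521 (459 to 589). After thinning, 62.1% of callus endothelial cells carried each of these 2 genes. Callus endothelial cells also held *Fbln5* at 111 (83.7 to 145) and *Eln* at 103.01 (76.7 to 135), while *Mfap4* and *Fbln1* had 0 UMIs in both libraries, which in the callus allows up to 6.06 CPM. *Emilin1* stood at 11.5 CPM in intact and 17.0 in callus monocytes, from 8 and 74 UMIs. Myogenic cells of the callus had at most 4.82 CPM of any of the 10 genes. Intact myogenic cells had 4 UMIs of *Fbn1*, or 14.3 CPM.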
